A study of Mus musculus with 6 samples.

Results

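The granins and the prohormone processing genes were followed in RNA-seq libraries of mouse pylorus, where the stomach opens into the duodenum. The members were the rows of the deposited table whose symbol was Chga, Chgb, Scg2, Scg3, Scg5, Pcsk1, Pcsk2, Pcsk1n, Cpe or Vgf. These were 10 of the 39179 genes in the table, each with a single row and each above 0 in all 6 libraries. The 3 Sox2 WT libraries came from mice with floxed Sox2 alleles and no CreER at Rosa26, and the 3 Sox2 KO libraries from mice with the same floxed alleles and CreER at Rosa26. Mice of both groups had a mixed C57BL/6 x 129 background, received tamoxifen at 8 weeks of age and were used 2 weeks later; the age label reads 8 weeks and the series text 10 weeks. Rosa26 is active in most cell types, so that CreER was not limited to the epithelium, and the presence of CreER and the loss of Sox2 cannot be told apart. The muscle layer was peeled off and RNA was taken from epithelium and mesenchyme together. The labels number the samples but do not say that each came from a separate animal, so p-values speak only of library-to-library spread, which may be technical.

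Peptide hormones are made as larger precursors and stored in dense-core granules, from which they are released on a signal. Granins are acidic proteins that aggregate with hormones as the granules form, and several are themselves cut into peptides. Prohormone convertases cut the precursors after pairs of basic residues, carboxypeptidase E trims the basic residues left at the end, and small binding proteins assist or hold back each convertase. In the stomach this machinery serves the enteroendocrine cells, among them the gastrin, somatostatin and serotonin cells of the pylorus and the histamine and ghrelin cells of the acid-secreting stomach. Nerve cells use the same proteins.

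Values are RPKM, reads scaled to gene length and to library size, so levels of different genes can be set side by side, and the values of a group are given in the order of replicates 1, 2 and 3. Whole reads behind them were recovered as the smallest whole numbers that give the deposited values, and reached at least 19707990 reads in genes in Sox2 WT replicate 1 and at least 28614867 in Sox2 KO replicate 3. Sox2, the deleted gene, was at 11.1, 9.03 and 10.9 RPKM across the Sox2 WT libraries and 0.342, 0.210 and 0.420 RPKM across the Sox2 KO libraries. Xist and the Y-linked gene Ddx3y showed that 2 of the 3 Sox2 WT libraries, replicates 2 and 3, were from females and that the other 4 libraries were from males. Sex therefore differed along with genotype. The pyloric hormone gene Gast was at 2766 RPKM or more in every library. Genes of parietal cells, the acid-secreting cells that are few in the pylorus, were also present and uneven: Atp4a, which encodes a proton pump subunit, was at 307, 961 and 135 RPKM across the Sox2 WT libraries and 522, 526 and 256 RPKM across the Sox2 KO libraries.

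Chgb, Cpe and Chga carried most of the signal of the 10 genes. Together they made up 86.1% to 89.3% of the summed RPKM in each library, with means over the 6 libraries of 96.1, 89.2 and 84.9 RPKM. Scg5 (9.31 RPKM), Pcsk2 (9.004), Pcsk1 (8.14) and Scg3 (6.61) followed at about the same mean level, then Pcsk1n (1.96) and Scg2 (1.79), and Vgf was lowest at 0.262 RPKM. Neighbours in that order had overlapping ranges, apart from the steps from Chga to Scg5, from Scg3 to Pcsk1n and from Scg2 to Vgf. The summed level of the 10 genes was 419, 371 and 308 RPKM across the Sox2 WT libraries and 220, 277 and 247 RPKM across the Sox2 KO libraries, without overlap. Without Chgb the other 9 genes summed to 266, 271 and 178 RPKM in Sox2 WT and 164, 209 and 180 RPKM in Sox2 KO, and the groups overlapped.

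**Figure D1:**
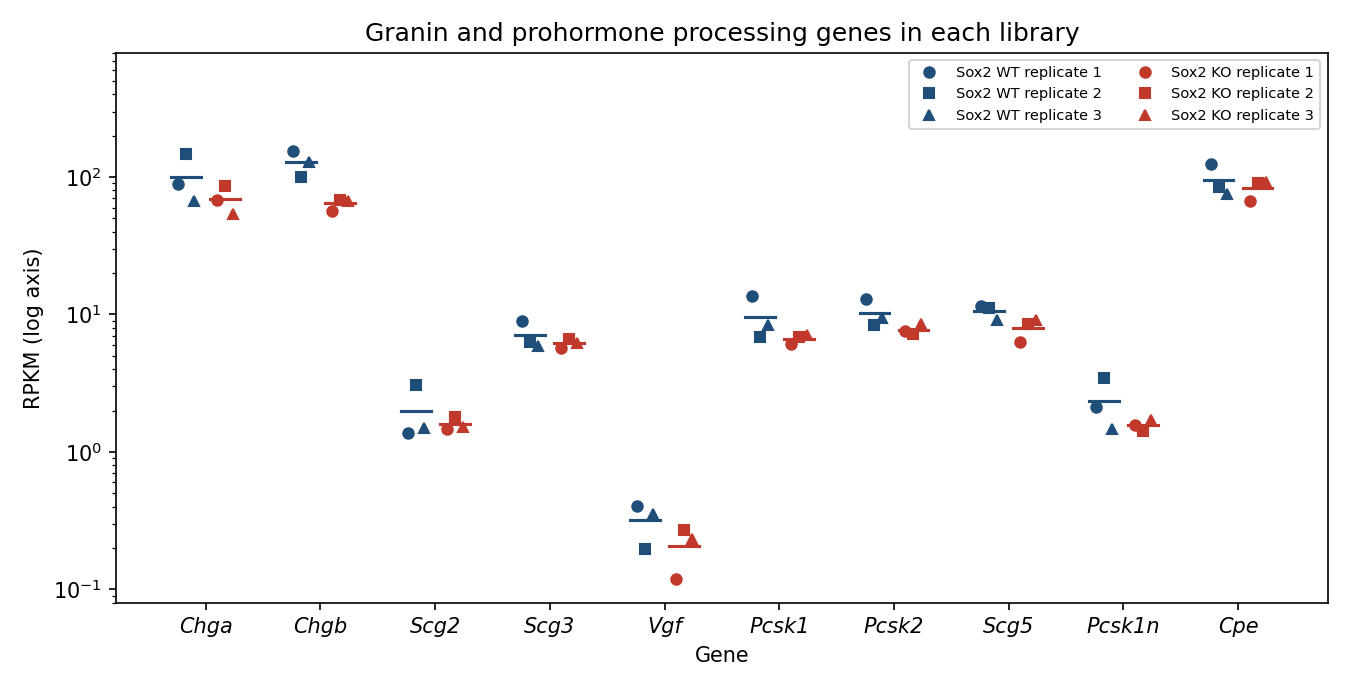
RPKM of the 10 granin and prohormone processing genes on a log axis, with 1 point per library (blue Sox2 WT, red Sox2 KO; circle, square and triangle for replicates 1 to 3) and a bar at each group mean (n = 3). The Chgb points of Sox2 KO, 56.8 to 68.4 RPKM, lie below those of Sox2 WT, 100.2 to 154 RPKM, while Chga, Cpe and most others overlap.

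Genotypes were compared to ask which of these genes differ once Sox2 is deleted. The level of Chgb in Sox2 KO was 50.3% of that in Sox2 WT, and Scg5 was at 75.0%; in these 2 genes the groups did not overlap. Fold changes are differences of mean log2(RPKM + 0.5), Sox2 KO minus Sox2 WT, a scale that understates changes of low genes. The test was limma over 14045 genes with a mean of at least 0.5 RPKM, with p-values adjusted by the Benjamini-Hochberg method over all of them and a threshold of 0.05. Of the 10 members 9 entered the test, and Vgf was below the filter. Of the 9, 0 passed, against 0.0285% of all tested genes, and 0 passed with limma's voom on the recovered reads; an unadjusted p under 0.05 was reached, on the lower side, by Chgb and Scg5, against 1.04% of all tested genes. All 9 log2 fold changes were negative, with a median of -0.40, while 43.2% of all tested genes were negative and their median was 0.02. Without Sox2 WT replicate 2 the members' median was -0.24. Without Sox2 WT replicate 1, 7 of the 9 were negative (all but Scg3 and Cpe), and 8 without Sox2 WT replicate 2 or with sex as a covariate (all but Scg2). Groups that did not overlap, with Sox2 KO lower, were found in 2 of the 9 and in 2.99% of all tested genes. The members had been selected with earlier results of these data in view, so these counts describe them and are not a test. Sox2 itself passed (log2 fold change -3.72, limma adjusted p = 2.9e-04).

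**Figure D2:**
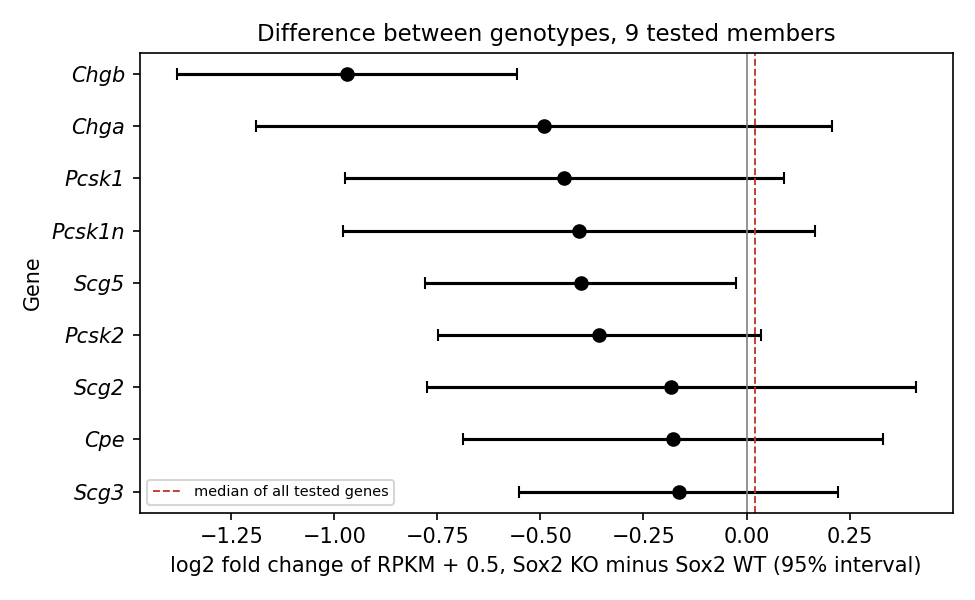
Log2 fold change of RPKM + 0.5, Sox2 KO minus Sox2 WT, for the 9 tested members with 95% intervals from limma (3 libraries per group); the dashed line is the median of all tested genes, 0.02. All 9 points lie below 0, and the unadjusted intervals of Chgb and Scg5 lie wholly below it.

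Chgb had the highest mean level of the members. Chgb, chromogranin B, which takes part in granule formation (ENSMUSG00000027350, chromosome 2, 132781278 to 132795079, mm10), was at 154, 100.2 and 130 RPKM across the Sox2 WT libraries and 56.8, 68.4 and 67.5 RPKM across the Sox2 KO libraries. These values rest on 10158, 7681 and 9043 reads and on 4632, 5439 and 6265 reads. Each Sox2 KO library was below each Sox2 WT library, and the Sox2 KO libraries lay close together. The means were 128 ± 26.9 and 64.3 ± 6.44 RPKM (SD, n = 3 each), and the log2 fold change came to -0.97 (SE 0.176, 95% interval -1.38 to -0.56, limma unadjusted p = 7.6e-04, adjusted p = 0.298). By p-value Chgb stood at place 35 of all 14045 genes. Exact permutation of the library labels (two-sided) gave p = 0.1, and 3 libraries against 3 cannot go below that. Leaving out each library in turn gave log2 fold changes of -1.13 to -0.83, and in the male libraries alone, against the lone Sox2 WT replicate 1, the log2 fold change was -1.26 (limma adjusted p = 0.593). With sample quality weights from limma, Chgb passed (adjusted p = 0.0132), in a fit that gave Sox2 KO replicate 2 a weight of 77.1 and each other library at most 0.899.

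Chga, chromogranin A, the usual histological marker of endocrine cells (ENSMUSG00000021194, chromosome 12, 102554969 to 102565028), was at 89.3, 146 and 66.6 RPKM across the Sox2 WT libraries and 67.8, 85.7 and 53.7 RPKM across the Sox2 KO libraries. The groups overlapped, and Sox2 WT replicate 2 stood above all other libraries. The log2 fold change came to -0.49 (SE 0.298, 95% interval -1.19 to 0.21, limma adjusted p = 1.00). Without Sox2 WT replicate 2 it was -0.18. The log2 ratio of Chgb to Chga was 0.78, -0.55 and 0.96 across the Sox2 WT libraries and -0.25, -0.33 and 0.33 across the Sox2 KO libraries. The ratio overlapped between the groups, and Sox2 WT replicate 2 had the lowest ratio of all 6 libraries.

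The secretogranins were lower in level. Scg2, secretogranin II, the precursor of secretoneurin (ENSMUSG00000050711, chromosome 1, 79434669 to 79440120), was at 1.37, 3.09 and 1.48 RPKM across the Sox2 WT libraries and 1.46, 1.80 and 1.52 RPKM across the Sox2 KO libraries, from 82 to 215 reads. Only Sox2 WT replicate 2 stood apart from the other 5 libraries. The log2 fold change came to -0.18 (SE 0.253, 95% interval -0.77 to 0.41, limma adjusted p = 1.00), and without that library it was 0.12. Scg3, secretogranin III, which binds chromogranin A and holds it at the granule membrane (ENSMUSG00000032181, chromosome 9, 75643189 to 75684056), was at 8.98, 6.33 and 5.87 RPKM across the Sox2 WT libraries and 5.66, 6.58 and 6.22 RPKM across the Sox2 KO libraries. Here Sox2 WT replicate 1 was the high library and the other 5 lay within 1 RPKM. For Scg3 the log2 fold change came to -0.16 (SE 0.165, limma adjusted p = 1.00), and without Sox2 WT replicate 1 it was 0.01. With sex as a covariate it was -0.51 and did not pass. Vgf, a granin-like precursor of several peptides (ENSMUSG00000037428, chromosome 5, 137026392 to 137033351), was at 0.406, 0.196 and 0.353 RPKM across the Sox2 WT libraries and 0.118, 0.270 and 0.231 RPKM across the Sox2 KO libraries. With 9 to 25 reads per library, counting error is large and the groups overlapped.

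The convertases and their binding proteins were next. Pcsk1, prohormone convertase 1/3 (ENSMUSG00000021587, chromosome 13, 75089826 to 75134861), was at 13.5, 6.85 and 8.44 RPKM across the Sox2 WT libraries and 6.08, 6.85 and 7.10 RPKM across the Sox2 KO libraries. Pcsk2, prohormone convertase 2 (ENSMUSG00000027419, chromosome 2, 143546156 to 143816285), was at 12.9, 8.41 and 9.38 RPKM in Sox2 WT and at 7.52, 7.22 and 8.58 RPKM in Sox2 KO, in the same order of replicates. In both genes Sox2 WT replicate 1 was highest and the groups overlapped. Fold changes on the log2 scale were -0.44 for Pcsk1 (SE 0.228, 95% interval -0.98 to 0.09) and -0.36 for Pcsk2 (SE 0.167, 95% interval -0.75 to 0.03), both with a limma adjusted p of 1.00. Without Sox2 WT replicate 1 they were -0.18 and -0.18. With sex as a covariate, where that library is the only Sox2 WT library behind the fold change, they were -0.97 and -0.70, and neither passed. The log2 ratio of Pcsk1 to Pcsk2 ran from -0.30 to 0.07 in Sox2 WT and from -0.31 to -0.08 in Sox2 KO, so the balance of the convertases overlapped between the genotypes. In the annotation 2 antisense genes, Pcsk2os1 and Pcsk2os2, overlap exons of Pcsk2, and their reads cannot be told apart without strand.

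Scg5, which encodes 7B2, the chaperone and inhibitor of convertase 2 (ENSMUSG00000023236, chromosome 2, 113776362 to 113829121), was at 11.5, 11.2 and 9.16 RPKM across the Sox2 WT libraries and 6.32, 8.57 and 9.06 RPKM across the Sox2 KO libraries. The groups did not overlap, but the lowest Sox2 WT library, replicate 3, and the highest Sox2 KO library, replicate 3, were almost level. The log2 fold change came to -0.40 (SE 0.161, 95% interval -0.78 to -0.02, limma unadjusted p = 0.0397, adjusted p = 1.00). Without Sox2 KO replicate 1 it was -0.25. Pcsk1n, which encodes proSAAS, the inhibitor of convertase 1/3 (ENSMUSG00000039278, chromosome X, 7919822 to 7924410), was at 2.14, 3.45 and 1.47 RPKM across the Sox2 WT libraries and 1.58, 1.43 and 1.696 RPKM across the Sox2 KO libraries. The groups overlapped, and Sox2 WT replicate 2 was highest, as for Chga and Scg2. For Pcsk1n the log2 fold change came to -0.41 (SE 0.244, limma adjusted p = 1.00), and -0.14 without that library. Pcsk1n lies on the X chromosome and shares exonic bases with Eras on the other strand.

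Cpe, carboxypeptidase E (ENSMUSG00000037852, chromosome 8, 64592542 to 64693054), was the member with the highest level outside the chromogranins. It was at 125, 85.2 and 75.5 RPKM across the Sox2 WT libraries and 67.1, 90.2 and 91.6 RPKM across the Sox2 KO libraries. The groups overlapped, with the highest level in Sox2 WT replicate 1 and the lowest in Sox2 KO replicate 1. The log2 fold change came to -0.18 (SE 0.217, 95% interval -0.69 to 0.33, limma adjusted p = 1.00). Without Sox2 WT replicate 1 it was 0.03, and with sex as a covariate -0.61, which did not pass. Cpe made up 23.0% to 37.0% of the summed RPKM of the members, a range similar to that of Chga, 21.3% to 39.4%, and of Chgb, 24.7% to 42.1%.

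The members did not vary as a single block, as the grid of deviations from the 6-library mean shows. Chga, Scg2 and Pcsk1n were highest in Sox2 WT replicate 2, by 0.86, 0.69 and 0.73 on the log2 scale above their means. The other 6 tested members were highest in Sox2 WT replicate 1, by 0.75 for Pcsk1, 0.77 for Chgb and 0.52 for both Pcsk2 and Cpe. Over the 6 libraries Pearson's r of log2(RPKM + 0.5) was 0.96 between Pcsk1 and Pcsk2, 0.95 between Scg3 and Cpe, 0.83 between Chga and Scg2 and 0.33 between Chga and Chgb, given as descriptions of libraries that share genotype and tissue composition. The likeness of Chga and Scg2 rested on Sox2 WT replicate 2, without which r was 0.14 over 5 libraries. The likeness of Pcsk1 and Pcsk2 was 0.81 without Sox2 WT replicate 1, and that of Scg3 and Cpe 0.92.

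**Figure D3:**
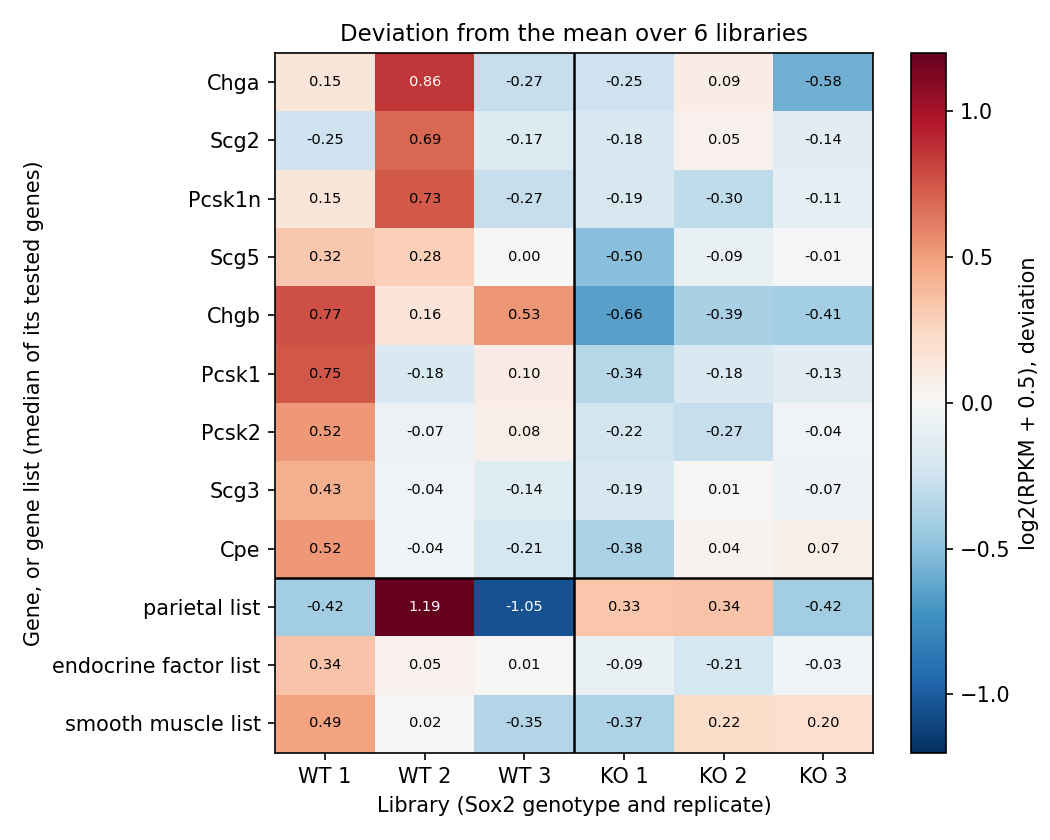
Deviation of log2(RPKM + 0.5) from the mean of the 6 libraries, for the 9 tested members and, under the line, the median deviation of the tested genes of the parietal, endocrine transcription factor and smooth muscle lists; columns are the 3 Sox2 WT and 3 Sox2 KO libraries. Chga, Scg2 and Pcsk1n have their highest values (0.86, 0.69 and 0.73) in Sox2 WT replicate 2, where the parietal list is at 1.19, and the other members in Sox2 WT replicate 1.

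Markers of other tissues differed between the same libraries. In Sox2 WT replicate 2 the 10 parietal genes had a median deviation of 1.19, and summed to 4869 RPKM against 2065 to 3662 RPKM in the other libraries. Median deviations there were also highest of the 6 libraries for the pancreatic acinar list (0.77), the duodenal enterocyte list (0.42) and the enteric glia list (0.36). The same held for the lists of monoamine synthesis and storage (0.47), interstitial cells of Cajal (0.22) and endothelial cells (0.19). Enterocyte genes summed to 473 RPKM there, against 214 to 342 RPKM elsewhere. Acinar genes summed to 535 RPKM there and 542 RPKM in Sox2 WT replicate 3. Glia genes summed to 10.6 RPKM there and 10.4 RPKM in Sox2 KO replicate 1. Over the 6 libraries the r of Chga, Scg2 and Pcsk1n with the mean of the list was 0.71, 0.78 and 0.58 for parietal cells, 0.72, 0.82 and 0.46 for enterocytes and 0.81 for each of the 3 for glia. For the list of monoamine synthesis and storage the r was 0.82, 0.60 and 0.73, in the same order of genes. Without Sox2 WT replicate 2 the r with the parietal list was 0.30 for Chga and 0.49 for Scg2. The other r values were not read without that library. Ghrl, ghrelin, was at 1490 RPKM in that library against 290 to 602 RPKM elsewhere, and Slc18a2, the vesicular monoamine transporter, at 4.11 RPKM against 1.09 to 2.06 RPKM. Hdc, the histamine synthesis gene, did not set it apart, at 2.97 RPKM there and 2.89 RPKM in Sox2 KO replicate 2. In Sox2 WT replicate 1 the 10 smooth muscle genes had a median deviation of 0.49 and summed to 860 RPKM, against 549 and 687 RPKM in the other Sox2 WT libraries and 518 to 817 RPKM in Sox2 KO. Over the 6 libraries the r of Cpe with the mean of the smooth muscle list was 0.94, and the r of Pcsk2 with the mean of the endocrine transcription factor list was 0.94. Without Sox2 WT replicate 1 they were 0.94 for Cpe and 0.76 for Pcsk2. With the endocrine transcription factor list the r was 0.88 for Pcsk1 and 0.84 for Chgb over the 6 libraries. Without Sox2 WT replicate 1 it was 0.39 for Pcsk1 and 0.73 for Chgb. The part of tissue composition in the members' differences was not tested. In bulk RNA, fewer endocrine cells and less RNA per cell cannot be told apart.

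Nerve and islet cells also express these genes. Of 20 enteric neuron markers 5 reached the test and 0 passed. The median log2 fold change of the 5 was -0.03 (from -0.11 to 0.13 when 1 library was left out). The 20 summed to 5.73 to 8.06 RPKM in Sox2 WT and 5.76 to 7.06 RPKM in Sox2 KO. Over the 6 libraries the r of tested members with the mean of the 5 tested markers ran from 0.20 (Chgb) to 0.74 (Cpe). The part of nerve cells in the members' levels was not tested. Unlike the 5 tested markers, with means of at least 0.5 RPKM, the neuronal RNA-binding protein gene Elavl4 was at most 0.0753 RPKM in any library. The insulin genes Ins1 and Ins2 were at most 0.246 and 0.0954 RPKM. These 3 markers were thus near 0 in both genotypes. Of the 7 islet markers as a whole, 3 reached the test, with a median log2 fold change of 0.58 (0.35 without Sox2 KO replicate 1), and 2 of them, the hormone genes Iapp and Ppy, were higher in Sox2 KO without overlap, as in 4.09% of all tested genes. The 7 summed to 4.08 to 6.35 RPKM in Sox2 WT and 5.71 to 8.18 RPKM in Sox2 KO. Iapp, which gastric endocrine cells also make, was at 1.63 to 2.66 RPKM in Sox2 WT and 3.39 to 5.08 RPKM in Sox2 KO.

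The promoters are shown because several granin and convertase genes are known targets of cyclic AMP signalling, which acts through the response element TGACGTCA. RefSeq promoter windows, from 250 bases before to 50 bases after the gene's start on GRCm38.p6, were found for 8 of the 10 members, all but Cpe and Vgf. The full element was in 3 of the 8, those of Scg2, Chgb and Pcsk1, and in 1.79% of the 32851 windows of all genes. Its first base lay 68, 72 and 78 bases before the RefSeq start. For Scg2 and Chgb the gene coordinates printed above, from GENCODE, start farther upstream and take in the element. The shorter core TGACG, read on both strands and contained in the full element, was in 7 of the 8 and in 20.8% of all windows; Pcsk1n had no match. The windows of Chgb (chr2:132781392-132781691, + strand), Pcsk1 (chr13:75089607-75089906, + strand), Scg2 (chr1:79439977-79440276, - strand) and Chga (chr12:102554691-102554990, + strand) follow, 5′ to 3′ on the gene's strand, with the full element and the core in capitals.
Chgb: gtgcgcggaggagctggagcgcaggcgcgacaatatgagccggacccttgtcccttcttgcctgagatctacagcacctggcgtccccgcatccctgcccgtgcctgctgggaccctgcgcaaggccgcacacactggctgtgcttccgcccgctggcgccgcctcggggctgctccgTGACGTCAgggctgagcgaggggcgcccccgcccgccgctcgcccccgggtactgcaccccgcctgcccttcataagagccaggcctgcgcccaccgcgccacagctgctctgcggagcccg
Pcsk1: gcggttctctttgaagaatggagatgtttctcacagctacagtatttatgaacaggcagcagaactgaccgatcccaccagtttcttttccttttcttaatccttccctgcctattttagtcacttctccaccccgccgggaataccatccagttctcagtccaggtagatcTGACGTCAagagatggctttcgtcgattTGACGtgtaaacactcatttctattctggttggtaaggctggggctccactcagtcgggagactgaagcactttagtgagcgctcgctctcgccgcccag
Scg2: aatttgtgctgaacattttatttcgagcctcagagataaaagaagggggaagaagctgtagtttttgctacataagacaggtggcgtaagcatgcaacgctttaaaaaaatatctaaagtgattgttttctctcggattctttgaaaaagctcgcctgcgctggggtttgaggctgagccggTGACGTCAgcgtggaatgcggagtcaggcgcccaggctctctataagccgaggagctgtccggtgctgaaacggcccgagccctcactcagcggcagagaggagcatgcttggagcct
Chga: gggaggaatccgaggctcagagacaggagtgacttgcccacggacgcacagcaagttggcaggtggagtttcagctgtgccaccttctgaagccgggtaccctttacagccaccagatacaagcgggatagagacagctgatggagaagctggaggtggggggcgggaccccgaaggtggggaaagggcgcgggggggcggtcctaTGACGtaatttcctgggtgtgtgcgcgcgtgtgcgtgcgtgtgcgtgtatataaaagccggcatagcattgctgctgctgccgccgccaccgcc
The 3 genes with the full element had log2 fold changes of -0.97 (Chgb), -0.44 (Pcsk1) and -0.18 (Scg2). Chgb and Pcsk1 were highest in Sox2 WT replicate 1, and Scg2 in Sox2 WT replicate 2. The short SOX-type motif ATTGT, on either strand, was in the windows of Scg2 and Chgb and in 31.0% of all windows. A match describes letters in this window and does not show that a factor binds there.

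The rest of the secretory pathway was read from lists chosen with earlier results of these data known, and 0 genes of any of these lists passed over all genes. Other processing enzymes had a median log2 fold change of 0.09, or from -0.01 (without Sox2 KO replicate 1) to 0.08 when 1 library was left out, with 6 of 15 tested genes negative against 43.2% of all tested genes. Pam, which amidates the ends of hormones such as gastrin, was at 22.4, 19.2 and 18.8 RPKM across the Sox2 WT libraries and 16.3, 17.3 and 16.8 RPKM across the Sox2 KO libraries (log2 fold change -0.25, SE 0.106, limma adjusted p = 1.00), and was the 1 enzyme whose groups did not overlap. The carboxypeptidase gene Cpd, which has a broad role in the secretory route, stood at a log2 fold change of 0.09 (SE 0.213), and the ubiquitous convertase gene Furin at 0.07 (SE 0.347). Over the 15 tested enzymes the log2 fold changes ran from -0.26 for Ero1lb, an oxidase of the endoplasmic reticulum, to 0.43 for Cpm, a membrane carboxypeptidase (SE 0.391).

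Genes of the dense-core vesicle and of exocytosis had a median of -0.11 (-0.06 without Sox2 WT replicate 3 and -0.05 without Sox2 KO replicate 3), with 21 of 26 tested genes negative, against 43.2% of all tested genes, and 4 whose groups did not overlap, all lower in Sox2 KO, as in 2.99% of all tested genes. Cplx2, a complexin that clamps vesicle fusion, was at 6.91, 5.23 and 5.45 RPKM across the Sox2 WT libraries and 3.93, 3.40 and 3.56 RPKM across the Sox2 KO libraries (log2 fold change -0.62, SE 0.134, limma adjusted p = 0.526). The log2 fold change of Scgn, secretagogin, a calcium sensor of endocrine cells, was -0.60 (SE 0.190) and that of Resp18, a granule lumen protein, -0.52 (SE 0.181), both with a limma adjusted p of 1.00. Snap25, a fusion protein, was the fourth gene without overlap, at -0.23 (SE 0.129). In all other tested genes of the list the groups overlapped. Log2 fold changes among these were -0.11 for Rab27a (SE 0.220) and 0.05 for Rab3d (SE 0.109), which mucous and exocrine cells also use. They were -0.36 for Ptprn (SE 0.221), -0.10 for Ptprn2 (SE 0.193) and -0.05 for Syt13 (SE 0.154).

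**Figure D4:**
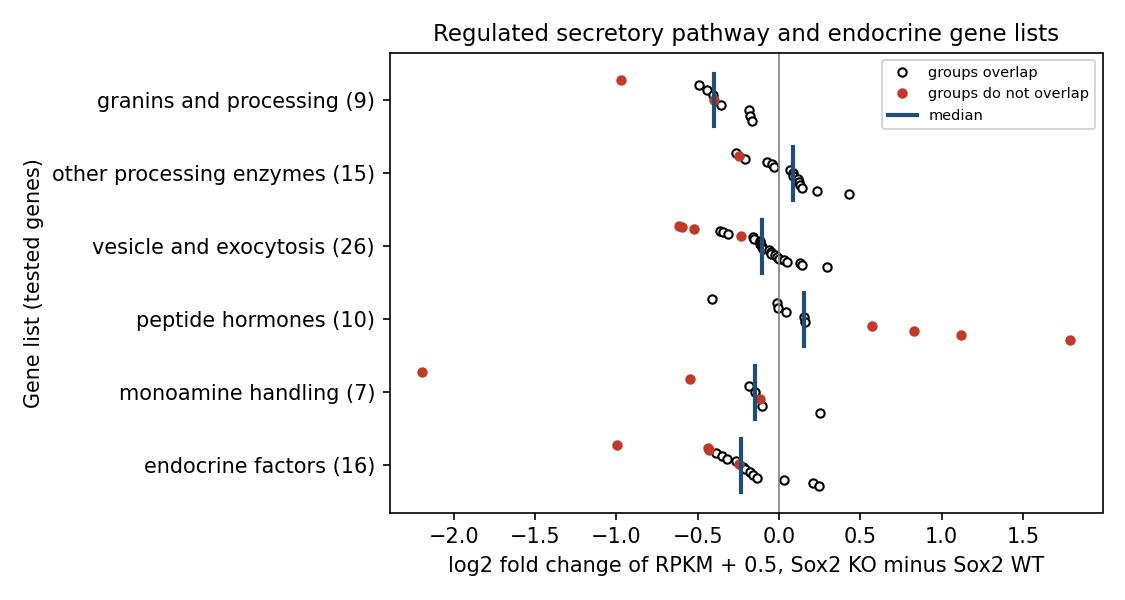
Log2 fold change of RPKM + 0.5, Sox2 KO minus Sox2 WT, for every tested gene of 6 lists; red points are genes whose groups have no overlap, and the blue bar is the list median. The granins and processing genes have a median of -0.40 and the peptide hormones of 0.16, with 4 non-overlapping hormone genes on the higher side.

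The peptide hormones, the cargo of this machinery, had a median log2 fold change of 0.16 and 3 of 10 tested genes negative, against 43.2% of all tested genes. The median was 0.61 with sex as a covariate, 0.50 without Sox2 WT replicate 2, 0.30 without Sox2 KO replicate 1 and -0.0031 without Sox2 WT replicate 3. Gast was at 6383, 3056 and 3496 RPKM across the Sox2 WT libraries and 2766, 4439 and 6095 RPKM across the Sox2 KO libraries, with overlap. In 4 hormone genes each Sox2 KO library lay above each Sox2 WT library, as in 4.09% of all tested genes. These were Iapp, amylin (log2 fold change 0.83, SE 0.192, limma adjusted p = 0.611), Gip, an incretin (1.12, SE 0.316, adjusted p = 0.938), Pyy (0.57, SE 0.187) and Cck (1.79, SE 0.526), the last 2 with an adjusted p of 1.00. Gip was at 4.87, 7.03 and 7.61 RPKM across the Sox2 WT libraries and 9.58, 13.4 and 23.6 RPKM across the Sox2 KO libraries.

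Genes of monoamine synthesis and storage had a median of -0.14 over 7 tested genes (-0.21 to -0.10 when 1 library was left out). Of the 7, 6 were negative, against 43.2% of all tested genes. In 3 the groups did not overlap, all lower in Sox2 KO, against 2.99% of all tested genes. Tph1, the serotonin synthesis gene of enterochromaffin cells, stood at -2.19 (SE 0.224, limma adjusted p = 0.0501) and Maob, a monoamine oxidase, at -0.55 (SE 0.148, adjusted p = 0.867). Among endocrine lineage transcription factors 13 of 16 tested genes were negative, against 43.2% of all tested genes, with a median of -0.23. With sex as a covariate this median was -0.47. Of the 16, 4 had groups without overlap, all lower in Sox2 KO, as in 2.99% of all tested genes. The summed level of the 22 listed factors was not lower in Sox2 KO. It was 103 to 126 RPKM in Sox2 WT and 118 to 138 RPKM in Sox2 KO, with overlap. Neurog3, which starts the endocrine lineage, stood at a log2 fold change of -0.43 (SE 0.155) and Insm1, which acts in granule-forming endocrine cells, at -0.44 (SE 0.162), both with a limma adjusted p of 1.00.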

How the data were processed

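RNA was sequenced from 3 Sox2 WT and 3 Sox2 KO pylorus samples. The deposited values are RPKM, computed by the authors; the submitters' processing notes name CASAVA 1.7, STAR and the build mm10. How reads were counted, with which annotation and strand setting, is not given in the sources used. The series table equals the 6 single-library tables. Coordinates are from GENCODE mouse release 21 (GRCm38, which is mm10).

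The test was limma (version 3.58.1, R 4.3.3) with a variance trend on log2(RPKM + 0.5), over 14045 genes with a mean of at least 0.5 RPKM, keeping the highest row of each symbol. The script was tested on simulated data. Reads are the smallest whole numbers that give the RPKM within 1e-05 reads, found for 99.98% of 23538 genes above 0, and may be too low by a common factor. The members and the 20 gene lists were chosen with earlier results of these data known. The text names all members, Sox2, and some of the genes with the 2 highest means or the 2 smallest p in each list. Ero1lb, Cpm, Hdc, Resp18, Snap25, Ptprn, Ptprn2, Syt13, Furin, Pyy, Cck, Insm1, Atp4a, Slc18a2, Elavl4, Ins1 and Ins2 were chosen after their values were seen. Other genes that meet this rule are not reported here. Features of the proteins were not analysed here. The alternatives were other pseudocounts, filters, scalings, variance models and thresholds, a replicate block, sex as a covariate, male libraries alone, quality weights and each library left out; limma's voom on recovered reads was added after the data were seen.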

Additional observations from a re-analysis of the deposited data

How the results depend on the processing

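The members kept the direction and the side of the threshold in 164 of 171 combinations of 9 tested members and 19 alternatives. As 0 members passed in the main test, and other filters and variance models leave the fold change unchanged, this count is a weak check. Scg2 turned positive with sample quality weights (0.0845), under the sex covariate and among males only (0.16 each), and ran from -0.35 to 0.12 when 1 library was left out. On leaving out 1 library Scg3 ran from -0.28 to 0.0100 and Cpe from -0.33 to 0.0347. Chgb passed with quality weights alone, at -0.97; the iteration for the weights stopped short of its tolerance. The number of genes called, 4, was 1 with the replicate block, 1 with sex as a covariate, 0 in the male libraries alone (583 at an unadjusted p under 0.05, limma), 181 with quality weights, 7 with voom, 8 at an adjusted p under 0.1, and 1 to 8 when 1 library was left out (1 without Sox2 WT replicate 3 or Sox2 KO replicate 2, 7 without Sox2 WT replicate 1, 8 without Sox2 KO replicate 1); the cause was not tested. The median of the members ran from -0.52 to -0.34 over 5 alternatives and from -0.50 to -0.24 when 1 library was left out, an alternative added after the data were seen. With the replicate block Chgb had an adjusted p of 0.673, and 0 members passed. The labels do not say what a replicate number marks. Deviations of same-numbered libraries correlated at 0.0088, 0.097 and -0.074, and those of differently numbered libraries at -0.16 to 0.16. With 3 libraries per group these values cannot show whether the numbers pair the samples. With sex as a covariate, the only Sox2 WT library behind a fold change is replicate 1. Among males only, the single control library is assumed to vary like the others; Sox2 lost its call there (-3.82, adjusted p = 0.154) and in no other alternative. Vgf, at 25 reads or fewer, is limited by depth.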

Other observations

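The libraries of Sox2 WT were more spread in these genes than those of Sox2 KO. The SD of log2(RPKM + 0.5) was larger in Sox2 WT for 8 of the 9 tested members, all but Scg5, with a median of 0.381 in Sox2 WT and 0.123 in Sox2 KO. Over all 14045 tested genes it was larger in Sox2 WT for 50.3%, with medians of 0.161 and 0.164. The SD of Pcsk1 was 0.478 in Sox2 WT and 0.110 in Sox2 KO, and that of Pcsk1n 0.505 and 0.0937. The highest library of each of the 9 was Sox2 WT replicate 1 or 2. Members also varied together, with an r of 0.96 between Pcsk1 and Pcsk2 and 0.95 between Scg3 and Cpe. The 8 members are therefore not separate signs of a wider spread in Sox2 WT. The Sox2 WT libraries came from both sexes and the Sox2 KO libraries from males, and the part of sex in this spread was not tested.

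The genes whose pattern over the 6 libraries was most like a member's were read by Pearson's r of log2(RPKM + 0.5), as descriptions. For Pcsk1 these were the predicted gene Gm15564 (r = 0.995), Lars2, a mitochondrial leucyl-tRNA synthetase (0.994), and Nkx2-2, an endocrine transcription factor (0.988). For Cpe they were Ednra, an endothelin receptor of smooth muscle (0.984), Abhd8 (0.983) and Xxylt1 (0.977). For Chgb they were Usp36 (0.989), Pla2g2f (0.986) and Sgtb (0.985), and for Chga P4ha2 (0.984), 9430020K01Rik (0.981) and Gid4 (0.980). An r above 0.9 was reached by 101 genes for Pcsk1, 51 for Cpe, 76 for Chgb and 108 for Chga.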
